A study of Mus musculus with 9 samples.

Results

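The genes described here are 42 genes that mark the blood vessels and the macrophages of pancreatic islets. They were chosen as a list of symbols, and the first row with each symbol was taken from a count table of 25611 genes. All 42 were in the table. By role, 17 are endothelial genes, 2 encode ligands that act on vessels, 5 mark pericytes and smooth muscle, 15 mark myeloid cells and 3 belong to class II antigen presentation. The list was drawn up as an index of cells that the Pdx1-Cre driver does not mark, without Glis3 peaks nearby. The second point was not met by 16 of the 42 genes (38.1%), which had a Glis3 peak within 10 kb of their start. Over the 14529 genes tested below, 80.5% had one.

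RNA sequencing was done on hand-picked islets of 4-week-old mice. The labelled knockout group (Pdx1-Cre;Glis3fl/fl, 3 mice) carried a conditional Glis3 allele and a Cre recombinase driven by the Pdx1 promoter, which is active in the pancreatic epithelium. The control group (Glis3fl/fl, 4 mice) carried the same allele without Cre. With no mice that had Cre on a normal Glis3 background, what the driver does and what the deletion does cannot be told apart. Glis3, a zinc finger transcription factor, had 52.05, 52.74 and 57.75 CPM (counts scaled to a library of 1000000) in labelled knockouts 1 to 3, against 39.53, 46.77, 31.23 and 33.55 CPM in controls 1 to 4. Its count was taken over the whole gene and does not check the deletion. Binding of Glis3 was mapped once, by chromatin immunoprecipitation with a GFP antibody (abcam ab290) in islets from Glis3-eGFP mice aged 8 weeks, and gave 21254 peaks.

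Islets are supplied by a dense bed of fenestrated capillaries. Vascular endothelial growth factor A (Vegfa), which endocrine cells including beta cells release, binds the receptors Kdr and Flt1 on endothelial cells, and the angiopoietins act through the receptor Tek. Pericytes wrap these capillaries and, with smooth muscle cells, form the mural cells of vessels, and resident macrophages lie along them, depend on the receptor Csf1r, make the complement protein C1q and present peptides on class II molecules. Endothelial, mural and myeloid cells arise outside the Pdx1 lineage, whereas Vegfa is also a product of cells within it.

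Totals ran from 12099365 to 22578480 counts in the labelled knockouts and from 18297697 to 48054551 counts in the controls. Levels are CPM after scaling by TMM factors. They carry no correction for gene length, so levels of different genes are not compared. The defining markers Pecam1, Cdh5, Kdr, Rgs5, Pdgfrb, Csf1r and C1qa had reads in every library, while the myeloid markers Itgam and Mrc1 were at or near 0. Markers of T and NK cells and of neutrophils were sparse. Summed over 7 T and NK cell genes, levels were 3.42 to 4.25 CPM in the labelled knockouts and 1.30 to 4.40 CPM in the controls, and 5 neutrophil genes summed to at most 0.709 CPM in any library. The B cell genes summed to 1.34 to 4.34 CPM in the labelled knockouts and 14.7 to 21.1 CPM in the controls, where Cd79a had 14.5 to 20.5 CPM. The red cell genes, of which only Alas2 had reads, summed to 4.75 to 23.7 CPM in the labelled knockouts and 0.906 to 6.32 CPM in the controls. The 12 acinar markers, from exocrine tissue that clings to picked islets, summed to 2199, 12400 and 3084 CPM in labelled knockouts 1 to 3, against 760.1, 3911, 686.9 and 4464 CPM in controls 1 to 4. Labelled knockout 2 stood above every other library in that sum. Reads of Xist, the transcript of the inactive X, were found in labelled knockouts 1 and 2 and controls 1 and 2, and reads of the Y-linked gene Ddx3y in labelled knockout 3 and controls 3 and 4.

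Most of the vascular and myeloid genes did not pass the test between the groups. Of the 42, 40 passed a filter on low counts and were tested within a fit over all 14529 genes so retained (edgeR quasi-likelihood test, Benjamini-Hochberg adjusted p under 0.05). Vegfa was lower in the labelled knockouts, 1 of 40 genes, where 5.25% of all tested genes were lower. Rgs5, C1qa and Fcer1g were higher, 3 of 40 genes (7.50%), where 8.73% of all tested genes were higher. Both shares lie near or under those of all genes. Counts by role and by further list, given below, rest on few genes. Their background is the same, 8.73% higher and 5.25% lower. The other 36 did not pass. An unadjusted p under 0.05 was found in 8 of the 40, where 4091 of all 14529 tested genes had one. Without labelled knockout 3 only C1qa was higher, and without labelled knockout 2 Angpt2 was lower beside Vegfa, so that the counts ran from 1 to 3 higher and 1 to 2 lower genes as single libraries were left out. The log2 fold change, labelled knockout over control, was positive in 30 genes and negative in 10, against 7343 and 7186 of all tested genes. Its median was 0.19, against 0.01 over all tested genes. Without labelled knockout 2 the signs of Cdh5, Robo4, Kdr, Sox18, Pdgfrb and Cspg4 turned negative and that of H2-Ab1 turned positive. In bulk tissue, fewer cells of a type and less RNA per cell cannot be told apart.

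**Figure D1:**
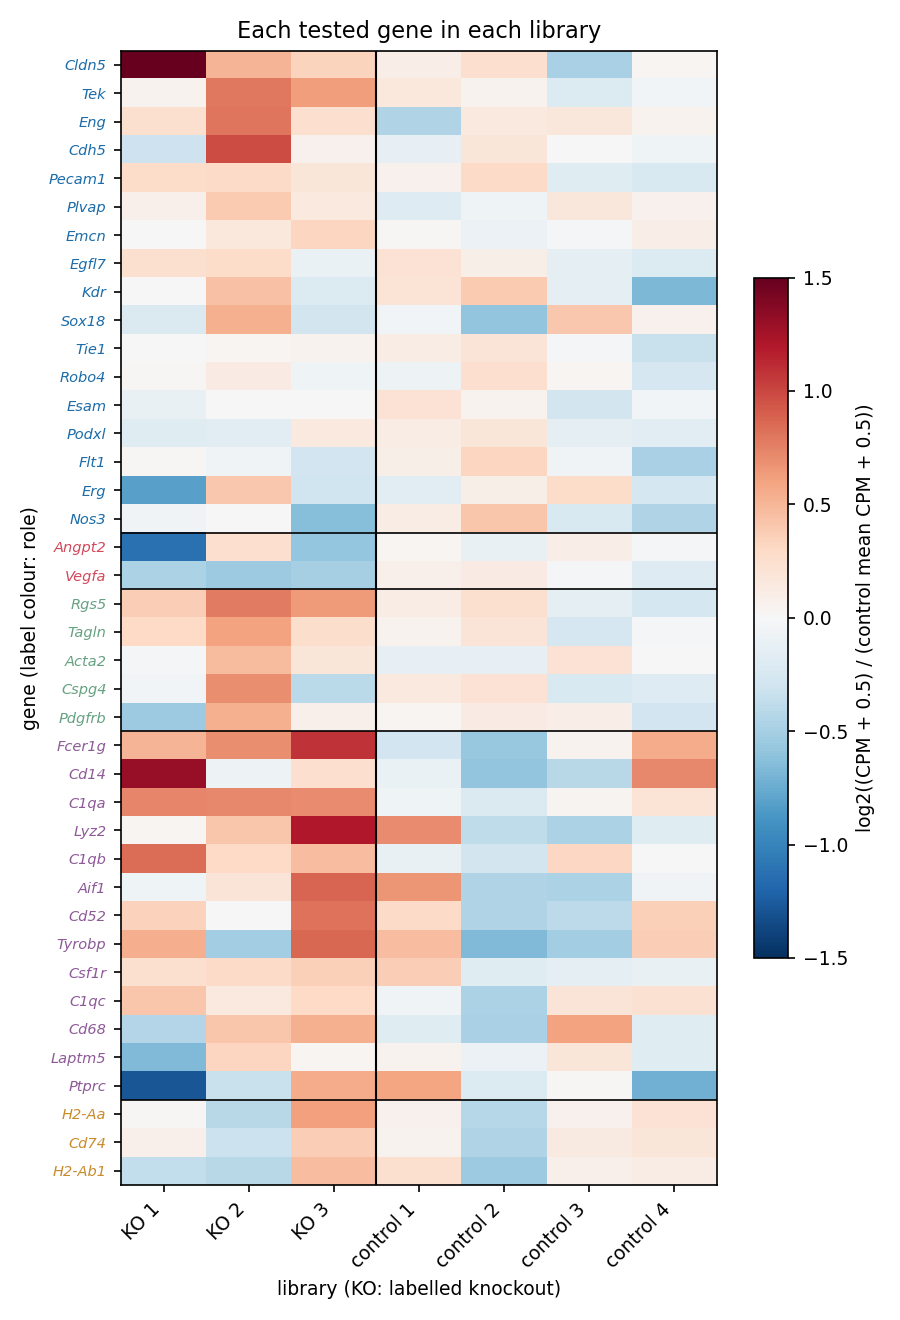
Level of each of the 40 tested genes (rows, grouped and coloured by role) in each of the 7 libraries (columns, KO for labelled knockout), as log2((CPM + 0.5) / (control mean CPM + 0.5)), with red above and blue below the control mean. Vegfa is blue and C1qa red in all 3 labelled knockouts, and labelled knockout 2 is the highest library for 8 of 17 endothelial genes and 5 of 5 pericyte and smooth muscle genes.

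None of the 17 endothelial genes passed the test, and their median log2 fold change was 0.11. That median ran from −0.01 (without labelled knockout 2) to 0.20 (without labelled knockout 3) when 1 library was left out. Pecam1, an adhesion protein at endothelial junctions, had 57.2, 57.8 and 53.9 CPM in the labelled knockouts, against 49.5, 57.9, 41.7 and 40.4 CPM in the controls. Control 2 was as high as the labelled knockouts, so the groups overlapped (log2 0.25, SE 0.14, edgeR adjusted p = 0.254). Cdh5, the cadherin of those junctions, had 33.3, 82.2 and 43.3 CPM in the labelled knockouts, against 38.1, 47.1, 41.2 and 39.7 CPM in the controls. Only labelled knockout 2 stood out, and the log2 fold change of 0.35 (SE 0.25, edgeR adjusted p = 0.403) was −0.12 without that library. Plvap, which forms the diaphragms of fenestrated endothelium, made up 29.7% to 35.9% of the summed endothelial CPM and had a log2 fold change of 0.22 (SE 0.13, edgeR adjusted p = 0.317).

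The endothelial receptors gave small differences. Kdr, the main signalling receptor for Vegfa, had 62.7, 85.4 and 54.4 CPM in the labelled knockouts, against 72.4, 82.2, 56.8 and 39.2 CPM in the controls. The groups overlapped over nearly their whole range (log2 0.11, SE 0.23, edgeR adjusted p = 0.817), and the 95% interval of the log2 fold change ran from −0.40 to 0.61. Flt1, a receptor that also acts as a decoy for Vegfa, had a log2 fold change of −0.11 (SE 0.17, edgeR adjusted p = 0.730). Tek, the angiopoietin receptor, had 8.98, 15.2 and 13.6 CPM in the labelled knockouts, against 9.72, 8.99, 7.43 and 8.38 CPM in the controls. Labelled knockouts 2 and 3 exceeded every control and labelled knockout 1 did not (log2 0.55, SE 0.21, edgeR adjusted p = 0.110). Without labelled knockout 1 the log2 fold change of Tek was 0.73 with an edgeR adjusted p of 0.0303. The related receptor gene Tie1 was at 0.03 (SE 0.14, edgeR adjusted p = 0.921), and its sign changed under 4 of 18 alternatives.

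Eng and Cldn5 were the endothelial genes without overlap between the groups. Eng, a co-receptor for TGF-beta family ligands, had 128.4, 188.7 and 128.8 CPM in the labelled knockouts, against 79.3, 119.6, 121.6 and 112.6 CPM in the controls (log2 0.46, SE 0.17, edgeR adjusted p = 0.0982). Every labelled knockout was above every control, with labelled knockouts 1 and 3 close to control 3. With the replicate number as a block Eng passed (log2 0.46, edgeR adjusted p = 0.0354). Cldn5, a tight junction claudin, had 2.67, 0.864 and 0.709 CPM in the labelled knockouts, against 0.522, 0.642, 0.183 and 0.479 CPM in the controls (log2 1.55, SE 0.72, edgeR adjusted p = 0.174). Its highest value was in labelled knockout 1, the library with the fewest counts, and without that library the log2 fold change was 0.73. Over all 40 tested genes, 5 were higher without overlap (12.5%), where 14.0% of all tested genes were, and 1 was lower without overlap, where 12.6% of all tested genes were.

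The other endothelial genes stayed within log2 fold changes of −0.23 and 0.17. These were Emcn and Podxl, which encode sialomucins of the vessel surface, Esam and Robo4, which encode surface receptors, Egfl7, a secreted vessel protein gene, Nos3, the endothelial nitric oxide synthase gene, and the transcription factor genes Erg and Sox18. Emcn (0.17), Egfl7 (0.14), Sox18 (0.07) and Robo4 (0.03) were on the positive side. Esam (−0.04), Podxl (−0.06), Erg (−0.14) and Nos3 (−0.23) were on the negative side, where the first 3 turned positive under scaling by library size alone. Summed over the 17 endothelial genes, levels were 975.5, 1232 and 1014 CPM in the labelled knockouts, against 906.7, 998.4, 975.8 and 897.6 CPM in the controls. Labelled knockout 2 was high, and labelled knockout 1 lay just below controls 2 and 3.

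**Figure D2:**
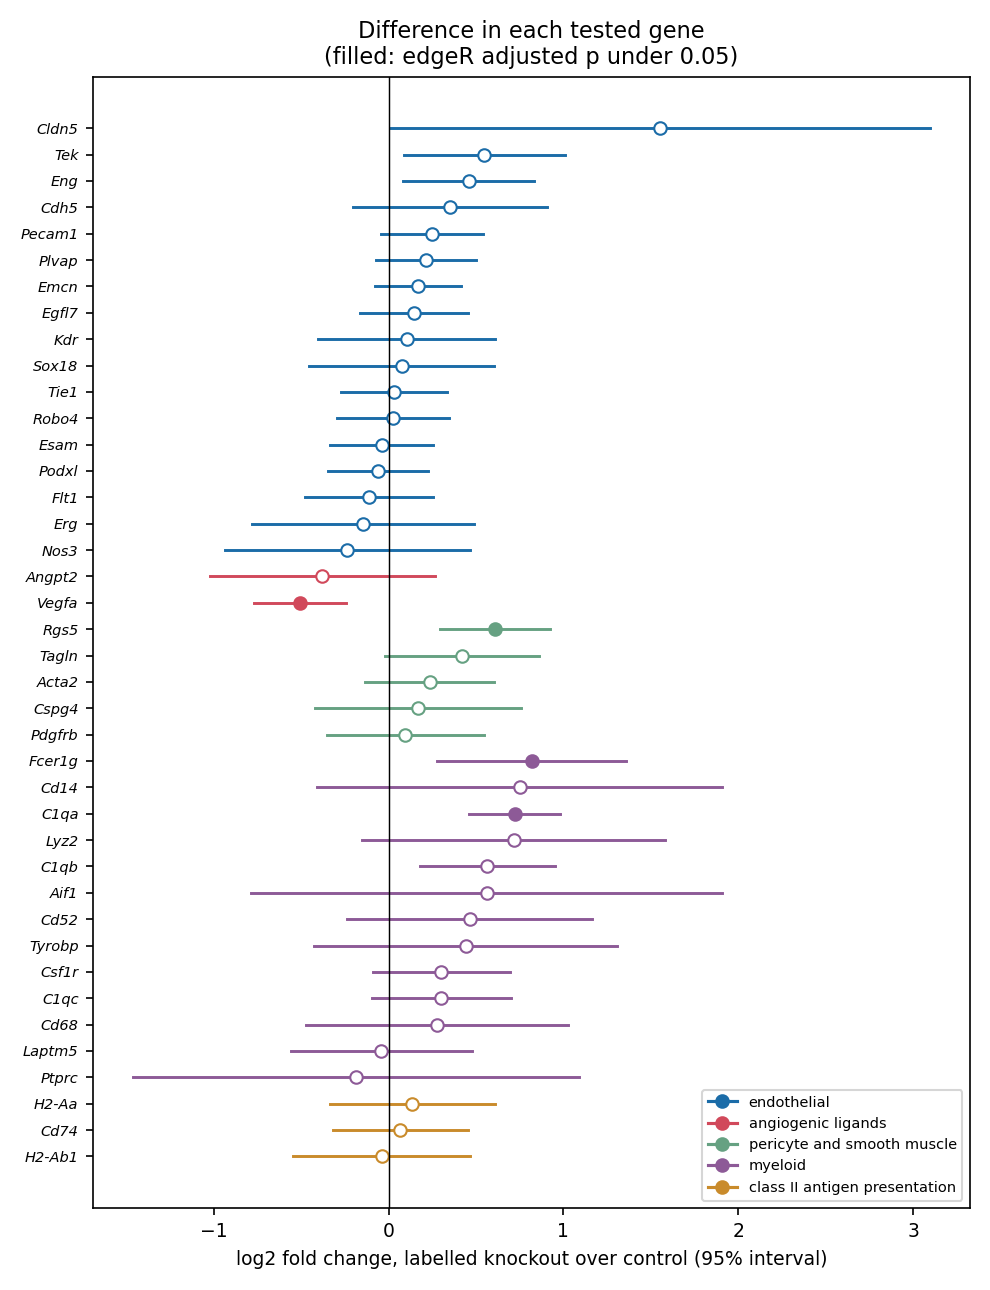
Log2 fold change of each tested gene, labelled knockout over control, with its 95% interval from edgeR (x axis) and the genes by role (y axis, colour), where filled points have an adjusted p under 0.05. Vegfa is the filled point on the negative side, at −0.51, and Rgs5, Fcer1g and C1qa are the filled points on the positive side, at 0.61 to 0.82.

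Of the 2 ligand genes, Vegfa fell and Angpt2 did not pass. Vegfa had 243.0, 232.4 and 240.1 CPM in labelled knockouts 1 to 3, against 355.5, 369.5, 332.2 and 296.7 CPM in controls 1 to 4. All labelled knockouts were below all controls, and the labelled knockouts lay closer together (238.5 ± 5.51 CPM, SD, n = 3) than the controls (338.5 ± 31.8 CPM, SD, n = 4). The level was 1.42-fold lower in the labelled knockouts (log2 −0.51, SE 0.12, edgeR adjusted p = 0.0128). Vegfa is also made by beta cells, and the 10 beta cell markers summed to 189400, 203000 and 299700 CPM in the labelled knockouts, against 367800, 329900, 468400 and 551000 CPM in the controls. Of that sum in labelled knockout 1, Ins1, Ins2 and Iapp made up 35940, 64370 and 87080 CPM. Among the 10 markers, 6 were lower, 1 was higher and 3 did not pass. The higher one was Iapp (log2 1.84, edgeR adjusted p = 3.82e-06), and Pdx1 was among those that did not pass (log2 −0.08, edgeR adjusted p = 0.753). The sum thus follows the insulin genes and Iapp. The part of the beta cell markers in the fall of Vegfa was not tested. The call was lost when libraries were scaled by their size alone (log2 −0.35, edgeR adjusted p = 0.165), a scaling that moved the median of all genes by 0.17, and relative to that median the fold change was −0.52. It was also lost with acinar marker level as a covariate (log2 −0.48, edgeR adjusted p = 0.0592).

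The promoter of Vegfa is shown because a Glis3 peak (chr17:46031021-46031220, mm10) lay inside the gene, 1257 bp downstream of its start. The 250 bases before the start (chr17:46032378-46032627, minus strand, GRCm38.p6) are from RefSeq, 5′ to 3′, with GAGGAA on either strand in capitals. These letters hold the GGAA core bound by the ETS family, which includes the endothelial factor Erg and the myeloid factor PU.1.
Vegfa: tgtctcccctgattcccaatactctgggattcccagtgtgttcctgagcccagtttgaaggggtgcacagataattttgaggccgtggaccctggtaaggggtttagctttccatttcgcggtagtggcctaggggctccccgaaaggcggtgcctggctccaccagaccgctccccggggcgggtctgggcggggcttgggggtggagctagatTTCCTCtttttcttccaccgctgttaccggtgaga
The capitals are on the reverse strand and begin 35 bases before the start. A promoter sequence was at hand for 25 of the 42 genes, and GAGGAA occurred on either strand in 16 of these, against 23.1% of 27025 mouse promoters of the same length. The letters TGGGGGGT, a form of the core bound by Glis proteins, occurred in 0 of the 25 and in 1.32% of all promoters. A match of letters is not evidence of binding.

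Angpt2, an angiopoietin that antagonises Tek in many settings, had 3.64, 10.2 and 5.49 CPM in the labelled knockouts, against 8.64, 7.78, 9.13 and 8.33 CPM in the controls. Labelled knockouts 1 and 3 were below every control and labelled knockout 2 was above every control (log2 −0.38, SE 0.30, edgeR adjusted p = 0.451). Without labelled knockout 2 the log2 fold change was −0.88 with an edgeR adjusted p of 0.0468. A further list held ligands, receptors and regulators of the same pathways, of which 13 were tested. Of these, 1 was lower, 2 were higher and 10 did not pass, with a median log2 fold change of 0.03. Vegfb, a ligand of Flt1, was lower (34.4 ± 6.28 CPM, SD, n = 3, in labelled knockouts and 62.4 ± 14.1 CPM, SD, n = 4, in controls, log2 −0.85, edgeR adjusted p = 0.00552). Epas1, the hypoxia-inducible factor of endothelium, was higher (log2 0.68, edgeR adjusted p = 0.00162). Ptprb, a phosphatase that acts on Tek, was also higher (log2 0.42, edgeR adjusted p = 0.0319), a call kept in 9 of 18 alternatives, with an adjusted p from 0.0164 to 0.126 over them and of 0.0694 with the replicate block.

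**Figure D3:**
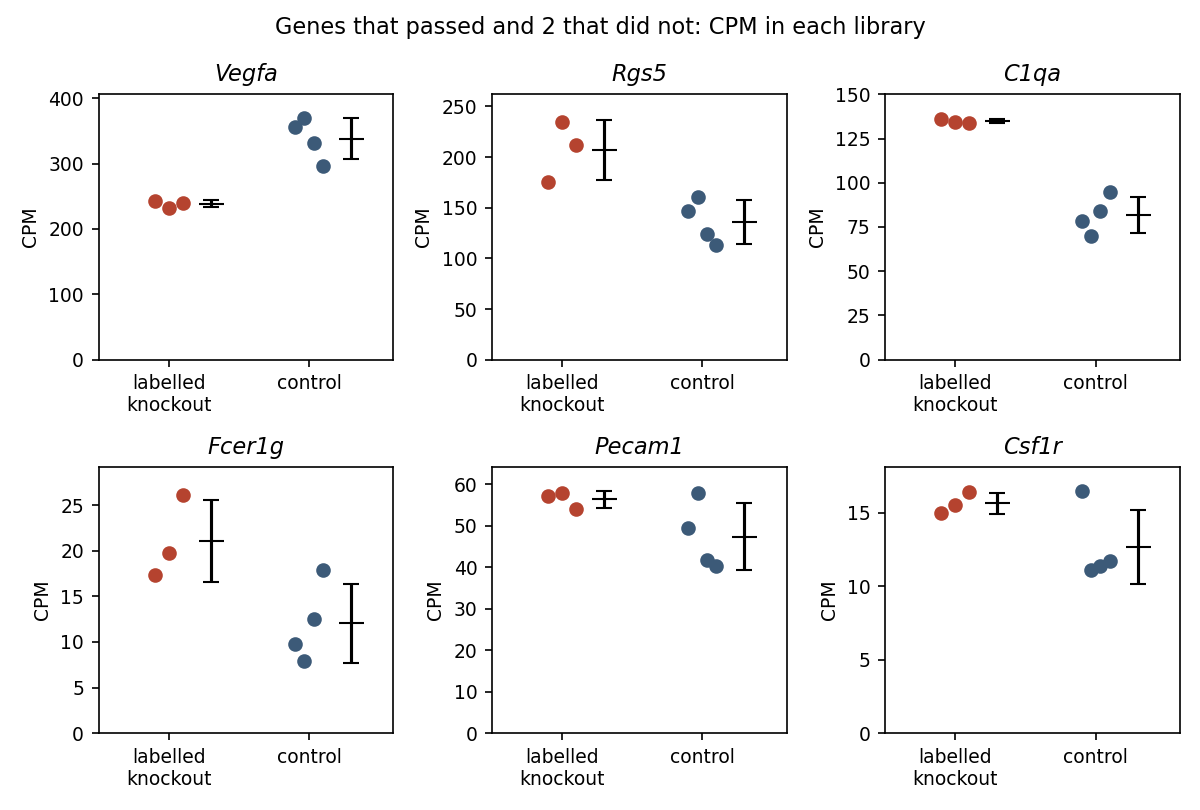
CPM (y axis, from 0) in each library for the 4 genes that passed the test, and for Pecam1 and Csf1r, which did not. Points are libraries (3 labelled knockouts, red, and 4 controls, blue), and bars beside them are the mean and SD. The groups are apart for Vegfa, Rgs5 and C1qa, and overlap for Fcer1g, Pecam1 and Csf1r.

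Among the 5 pericyte and smooth muscle genes, Rgs5 was higher in the labelled knockouts and 4 did not pass, with a median log2 fold change of 0.24. That median ran from 0.09 (without labelled knockout 2) to 0.37 (without labelled knockout 3) when 1 library was left out. Rgs5, a regulator of G protein signalling that marks pericytes, had 175.6, 234.4 and 212.0 CPM in the labelled knockouts, against 146.7, 160.2, 124.1 and 112.8 CPM in the controls. Every labelled knockout was above every control (log2 0.61, SE 0.15, edgeR adjusted p = 0.0132, 1.52-fold higher). The call depended on single libraries, with a log2 fold change of 0.51 (edgeR adjusted p = 0.0535) without labelled knockout 2, 0.56 (0.0592) without labelled knockout 3 and 0.55 (0.0570) without control 3. Among the 4 libraries with Xist reads the log2 fold change was 0.40 (edgeR adjusted p = 0.227), and with the acinar marker covariate it was 0.53 (edgeR adjusted p = 0.0785). Labelled knockout 2, with the highest acinar marker level, was the highest library for 5 of the 5 genes.

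The promoter of Rgs5 (chr1:169655251-169655500, plus strand, GRCm38.p6, RefSeq) is shown as that of the called mural gene, with GAGGAA on either strand in capitals.
Rgs5: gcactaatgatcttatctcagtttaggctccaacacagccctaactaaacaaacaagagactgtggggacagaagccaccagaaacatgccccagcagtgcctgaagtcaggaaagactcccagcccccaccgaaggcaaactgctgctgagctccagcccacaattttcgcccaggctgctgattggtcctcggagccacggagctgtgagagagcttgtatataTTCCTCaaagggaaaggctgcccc
The capitals are on the reverse strand and begin 24 bases before the start. The nearest Glis3 peak was 92164 bp from the start, and none of the 5 mural genes had a peak within 10 kb.

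Tagln, an actin-binding protein of smooth muscle, had 9.80, 12.2 and 9.52 CPM in the labelled knockouts, against 8.19, 9.02, 6.51 and 7.66 CPM in the controls. The groups did not overlap, yet the difference did not pass (log2 0.42, SE 0.20, edgeR adjusted p = 0.204). Acta2, smooth muscle actin, had 15.8, 22.5 and 18.3 CPM in the labelled knockouts, against 14.7, 14.7, 18.8 and 16.1 CPM in the controls, with overlap (log2 0.24, SE 0.17, edgeR adjusted p = 0.405). Pdgfrb, the receptor through which endothelial PDGF recruits pericytes, had 18.8, 40.2 and 29.2 CPM in the labelled knockouts, against 28.1, 30.2, 29.5 and 22.6 CPM in the controls. Both the lowest and the highest library were labelled knockouts (log2 0.10, SE 0.21, edgeR adjusted p = 0.814). The proteoglycan gene Cspg4 was at 0.17 (SE 0.27, edgeR adjusted p = 0.743).

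Summed over the 5 mural genes, levels were 227.8, 322.7 and 274.9 CPM in the labelled knockouts, against 206.7, 223.5, 185.7 and 166.1 CPM in the controls. The groups did not overlap in this sum, of which Rgs5 made up 66.8% to 77.1%. Without Rgs5 the sums were 52.2, 88.3 and 62.9 CPM in the labelled knockouts, against 59.98, 63.3, 61.6 and 53.3 CPM in the controls, and overlapped. In a further list of pericyte and smooth muscle genes, 14 were tested, of which 3 were higher, 1 was lower and 10 did not pass, with a median log2 fold change of 0.39. Of all tested genes, 8.73% were higher and 5.25% lower. Abcc9, a potassium channel subunit of pericytes, was at 0.99 (edgeR adjusted p = 0.0125), and Mylk, the myosin light chain kinase, at 0.96 (edgeR adjusted p = 0.0139). Abcc9 was called in 17 of 18 alternatives (adjusted p from 0.00156 to 0.110) and Mylk in 15 of 18 (0.00244 to 0.123). The call of Mylk was lost without labelled knockout 2 (edgeR adjusted p = 0.0845). Myl9, a myosin light chain, was at 0.55 (edgeR adjusted p = 0.0482) and was called in 4 of 18 alternatives, with an adjusted p from 0.0253 to 0.320 over them and of 0.120 with the replicate block. Anpep, a peptidase gene that other cells also express, was lower (log2 −1.27, edgeR adjusted p = 2.07e-05).

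**Figure D4:**
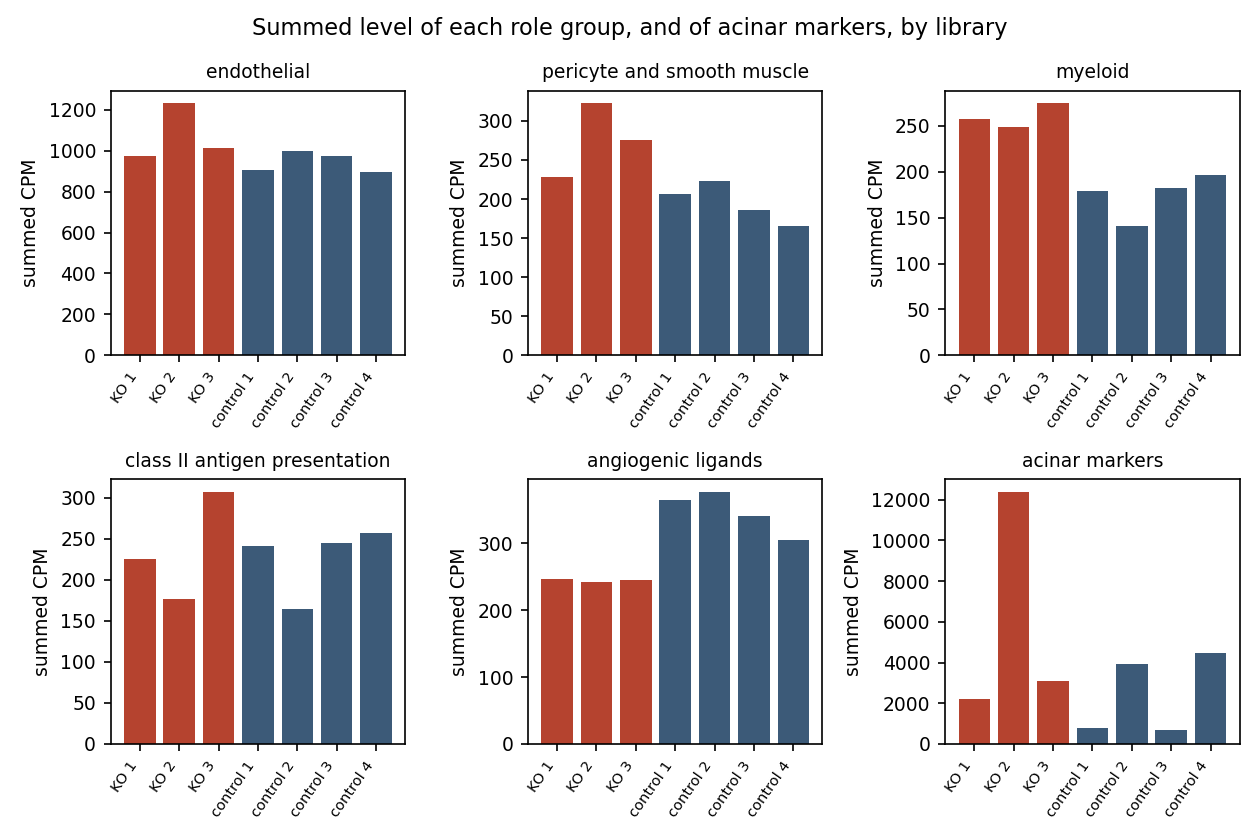
Summed CPM (y axis, from 0) of each role group and of the 12 acinar markers in each library (labelled knockouts, red, left, and controls, blue, right), 1 bar per library. The mural and myeloid sums do not overlap between the groups, the ligand sum is lower in the labelled knockouts, and the acinar bar of labelled knockout 2, at 12400 CPM, is the tallest of its panel.

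Of 13 tested myeloid genes, C1qa and Fcer1g were higher, where 8.73% of all tested genes were, and 11 did not pass. The median log2 fold change of the 13 genes was 0.47. Leaving out 1 library at a time, that median ran from 0.24 (without labelled knockout 3) to 0.68 (without labelled knockout 2). C1qa, a chain of the complement protein C1q made by tissue macrophages, had 136.0, 134.5 and 133.9 CPM in the labelled knockouts, against 78.4, 70.1, 83.9 and 94.5 CPM in the controls. The labelled knockouts lay close together and were all above every control. The level was 1.65-fold higher in the labelled knockouts (log2 0.72, SE 0.12, edgeR adjusted p = 0.00112). The call held in 18 of 18 alternatives, with an adjusted p from 4.29e-07 to 0.0134 over them.

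The genes of the other C1q chains lie beside C1qa on chromosome 4. C1qb had 33.2, 22.7 and 25.4 CPM in the labelled knockouts, against 17.0, 15.1, 22.8 and 18.4 CPM in the controls. Labelled knockout 2 lay just below control 3, and the others were higher than every control (log2 0.57, SE 0.18, edgeR adjusted p = 0.0513). The adjusted p of C1qb fell under 0.05 in 9 of 18 alternatives (0.0132 to 0.197). Among these 9 were DESeq2 (adjusted p = 0.031) and limma-voom (adjusted p = 0.0322), and the rest used edgeR. C1qc had 23.5, 19.5 and 21.8 CPM in the labelled knockouts, against 16.9, 12.5, 20.1 and 20.7 CPM in the controls, with overlap (log2 0.30, SE 0.18, edgeR adjusted p = 0.315). Reads of C1qa made up 70.6%, 76.1% and 73.9% of the summed C1q CPM in the labelled knockouts, against 69.8%, 71.7%, 66.2% and 70.7% in the controls, so the shares overlapped.

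Fcer1g, the Fc receptor gamma chain that passes signals on in myeloid cells, had 17.3, 19.8 and 26.1 CPM in the labelled knockouts, against 9.79, 7.96, 12.5 and 17.9 CPM in the controls. Control 4 was above labelled knockout 1, so the groups overlapped (log2 0.82, SE 0.25, edgeR adjusted p = 0.0443). The call was lost without labelled knockout 1, 2 or 3, at log2 fold changes of 0.94, 0.86 and 0.60 (edgeR adjusted p = 0.0502, 0.0847 and 0.192). It was also lost without control 1, 2 or 3, at 0.73, 0.66 and 0.82 (edgeR adjusted p = 0.102, 0.114 and 0.0886), and with the acinar covariate, at 0.77 (edgeR adjusted p = 0.129). Tyrobp, an adaptor of the same kind, was at 0.44 (SE 0.40, edgeR adjusted p = 0.523).

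Promoters of the myeloid genes C1qb (chr4:136886201-136886450, minus strand), C1qc (chr4:136892915-136893164, minus strand) and Fcer1g (chr1:171234350-171234599, minus strand), from RefSeq on GRCm38.p6, are shown to compare neighbouring C1q genes with the other called myeloid gene, with GAGGAA on either strand in capitals.
C1qb: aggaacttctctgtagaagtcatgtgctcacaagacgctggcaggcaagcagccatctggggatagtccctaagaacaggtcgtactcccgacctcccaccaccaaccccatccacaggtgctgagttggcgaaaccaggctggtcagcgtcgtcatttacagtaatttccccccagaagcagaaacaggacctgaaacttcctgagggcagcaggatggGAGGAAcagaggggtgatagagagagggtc
C1qc: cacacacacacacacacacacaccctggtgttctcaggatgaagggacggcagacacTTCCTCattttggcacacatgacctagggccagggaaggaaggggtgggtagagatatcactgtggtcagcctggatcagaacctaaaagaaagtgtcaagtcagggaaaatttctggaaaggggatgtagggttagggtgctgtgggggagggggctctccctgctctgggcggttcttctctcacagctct
Fcer1g: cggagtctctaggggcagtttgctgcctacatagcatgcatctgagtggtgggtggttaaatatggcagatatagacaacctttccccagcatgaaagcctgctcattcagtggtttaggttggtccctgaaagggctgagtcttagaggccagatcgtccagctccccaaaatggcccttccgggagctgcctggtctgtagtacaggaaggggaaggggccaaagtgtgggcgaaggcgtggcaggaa
The capitals begin 30 bases before the RefSeq start of C1qb, on the forward strand, and 193 bases before that of C1qc, on the reverse strand. GAGGAA does not occur in the Fcer1g window, though the shorter core GGAA does. GAGGAA occurred in 8 of the 10 myeloid promoters at hand. No promoter sequence was at hand for C1qa. The RefSeq start of C1qb lies 23 bases upstream of the gene start used for peaks.

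The defining genes Csf1r, Cd68, Lyz2 and Ptprc did not pass the test. Csf1r, the growth factor receptor of macrophages, had 15.0, 15.5 and 16.4 CPM in the labelled knockouts, against 16.4, 11.1, 11.4 and 11.7 CPM in the controls. Control 1 reached the labelled knockouts and the other controls were below them (log2 0.30, SE 0.18, edgeR adjusted p = 0.308). Cd68, a lysosomal glycoprotein, had 3.49, 6.70 and 7.35 CPM in the labelled knockouts, against 4.28, 3.34, 7.73 and 4.26 CPM in the controls, with overlap (log2 0.28, SE 0.35, edgeR adjusted p = 0.659). Lyz2, the lysozyme of myeloid cells, had 3.42, 4.62 and 8.33 CPM in the labelled knockouts, against 5.75, 2.43, 2.25 and 2.87 CPM in the controls (log2 0.72, SE 0.40, edgeR adjusted p = 0.270). Control 1 was the second highest of the 7 libraries for that gene.

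Ptprc, the CD45 phosphatase of all white blood cells, had 0.520, 1.47 and 3.14 CPM in the labelled knockouts, against 3.24, 1.65, 2.01 and 1.005 CPM in the controls. The labelled knockouts spanned nearly the whole range of the libraries (log2 −0.19, SE 0.59, edgeR adjusted p = 0.877), and the 95% interval ran from −1.46 to 1.09. Cd14 (0.75), Aif1 (0.56), Cd52 (0.47) and Laptm5 (−0.04) did not pass either. Their edgeR adjusted p ran from 0.387 to 0.938. Cd14 encodes a co-receptor for bacterial lipopolysaccharide, Aif1 the macrophage protein Iba1, Cd52 a small surface glycoprotein and Laptm5 a lysosomal membrane protein of blood cells.

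Itgam and Mrc1 did not pass the filter on low counts. Itgam, the integrin CD11b, had 0, 0 and 7 counts in the labelled knockouts, against 28, 11, 1 and 0 counts in the controls. Mrc1, the mannose receptor, had 5, 25 and 13 counts in the labelled knockouts, against 10, 9, 0 and 6 counts in the controls, and its CPM was higher in every labelled knockout than in any control. A count of 0 leaves room for up to 3 counts in such a library, counting error alone. With no filter the edgeR adjusted p was 0.587 for Itgam and 0.373 for Mrc1.

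Summed over the 15 myeloid genes, levels were 257.5, 248.7 and 274.8 CPM in the labelled knockouts, against 179.1, 141.4, 182.3 and 196.5 CPM in the controls, with no overlap. C1qa made up 43.8% to 54.1% of that sum. Without C1qa the sums were 121.5, 114.3 and 140.8 CPM in the labelled knockouts, against 100.7, 71.3, 98.5 and 102 CPM in the controls, again with no overlap. That remainder still held C1qb, C1qc and the called gene Fcer1g. These had 33.2, 23.5 and 17.3 CPM in labelled knockout 1, and 17.0, 16.9 and 9.79 CPM in control 1. A sum without them was not made, so the lack of overlap is not shown for the other myeloid genes. Control 2 was the lowest library for 9 of the 13 tested genes. In a further list of macrophage genes, 21 were tested, of which none was higher by the edgeR adjusted p, with 3 of the 21 at an unadjusted p under 0.05 in either direction and a median log2 fold change of 0.15. Log2 fold changes in that list were positive in 15 genes and negative in 6. Adgre1, the F4/80 antigen of macrophages, was at 0.81 (edgeR adjusted p = 0.142). Mertk was at 0.05 (edgeR adjusted p = 0.954), Irf8 at −0.05 (edgeR adjusted p = 0.953) and Cd53 at −0.35 (edgeR adjusted p = 0.823). Of 6 tested macrophage growth factor and chemokine genes, the chemokine gene Cxcl12 was higher (1.06, edgeR adjusted p = 0.00759) and the others did not pass, among them Csf1, a ligand of Csf1r (−0.50, edgeR adjusted p = 0.0696).

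None of the 3 class II genes passed the test, and their median log2 fold change was 0.07, or −0.22 without labelled knockout 3 and 0.23 without labelled knockout 2. Cd74, the invariant chain that guides class II molecules, had 148.5, 112.7 and 182.5 CPM in the labelled knockouts, against 145.9, 102.8, 155.4 and 160.5 CPM in the controls. H2-Aa, a class II alpha chain, had 46.7, 34.6 and 70.8 CPM in the labelled knockouts, against 48.6, 34.4, 48.3 and 53.7 CPM in the controls. Labelled knockout 3 was the highest and control 2 the lowest library for both, and also for the beta chain gene H2-Ab1, so the spread within groups exceeded the difference between them. The log2 fold changes were 0.07 (SE 0.18, edgeR adjusted p = 0.851) for Cd74, 0.14 (SE 0.22, edgeR adjusted p = 0.738) for H2-Aa and −0.04 (SE 0.23, edgeR adjusted p = 0.938) for H2-Ab1. Of 5 other tested genes of the class II pathway, H2-DMa, which helps load peptides, was higher (20.6 ± 2.72 CPM, SD, n = 3, in labelled knockouts and 7.44 ± 0.709 CPM, SD, n = 4, in controls, log2 1.47, edgeR adjusted p = 6.62e-05) and 4 did not pass. Of 9 class I and interferon genes, which all nucleated cells can express, H2-K1 (0.73, edgeR adjusted p = 0.0028) and H2-D1 (1.05, edgeR adjusted p = 0.00154) were higher and 7 did not pass. H2-K1 and H2-D1 are close copies of other class I genes, and how shared reads were counted is not known.

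A further list of 27 endothelial genes had a median log2 fold change of 0.28. By the edgeR adjusted p, 4 of these were higher, where 8.73% of all tested genes were, 0 were lower and 23 did not pass. An unadjusted p under 0.05 was found in 7 of them, where 4091 of all 14529 tested genes had one. Log2 fold changes were positive in 19 of the 27 and negative in 8. Among the negative ones were Dll4 (−0.44), Calcrl (−0.29), Notch1 (−0.26) and Hey2 (−0.25), none of which passed. Ramp2, a partner of the adrenomedullin receptor, had 83.6, 77.2 and 85.6 CPM in the labelled knockouts, against 16.1, 21.8, 25.8 and 21.9 CPM in the controls (log2 1.94, SE 0.15, edgeR adjusted p = 1.35e-06). All labelled knockouts were far above all controls. Hey1, a Notch target (1.57, edgeR adjusted p = 0.00288), Clec14a, an endothelial lectin gene (0.67, edgeR adjusted p = 0.0177), and Gpihbp1, which holds lipoprotein lipase on capillaries (0.74, edgeR adjusted p = 0.0278), were the others. Clec14a was called in 13 of 18 alternatives (adjusted p from 0.00482 to 0.135) and Gpihbp1 in 11 of 18 (0.0104 to 0.114, and 0.0861 with the replicate block). Of 3 tested lymphatic markers (median log2 fold change −0.04), Lyve1, of lymphatic vessels and some macrophages, was higher (1.75, edgeR adjusted p = 3.57e-05), while Flt4 (−0.04, edgeR adjusted p = 0.926) and Pdpn (−0.72, edgeR adjusted p = 0.409) did not pass. The fibroblast list had a median log2 fold change of 0.55, with 7 of 8 tested genes positive and 6 at an unadjusted p under 0.05. The fibroblast genes Dcn (0.92, edgeR adjusted p = 0.0221) and Thy1 (0.80, edgeR adjusted p = 0.0245) were higher among the 8, each called in 12 of 18 alternatives (0.00477 to 0.117 and 0.00767 to 0.0938).

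Other markers had their own differences. The duct list of 6 tested genes held 1 called gene, Spp1 (4.29, edgeR adjusted p = 1.79e-06), which duct cells and macrophages both make. The mesothelial marker Msln (−2.22, edgeR adjusted p = 9.52e-05) and the B cell marker Cd79a (−3.76, edgeR adjusted p = 0.00238) were lower, each the single tested gene of its list. None of 11 acinar genes (median 1.28), 4 Schwann cell genes (median 0.03), 2 T and NK cell genes (median 0.48) and 1 red cell gene passed, and of these the red cell gene alone had an unadjusted p under 0.05. Of 10 beta cell markers, 6 were lower, 1 was higher and 3 did not pass, with a median log2 fold change of −1.08. The part of these other cell types in the levels of the vascular and myeloid genes was not tested.

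The distance to Glis3 peaks is given as a description, since a lack of peaks was part of what the 42 genes were listed for. A peak midpoint lay within 10 kb of the start in 16 of the 42 (38.1%), against 80.5% of the 14529 tested genes. Within 1 kb it was 2 of 42 (4.76%), against 71.2%, within 50 kb it was 28 of 42 (66.7%), against 91.1%, and within 100 kb it was 35 of 42 (83.3%), against 95.0%. A peak lay inside the gene span of 12 of the 42 (28.6%), against 61.2% of tested genes. The median distance to the nearest peak was 20.3 kb for the 42 genes and 0.262 kb for all tested genes. The share of genes with a peak within 10 kb also differed with level, from 63.9% of genes under 10 CPM to 91.2% of genes at 10 to 100 CPM and 92.8% at 100 to 1000 CPM. In the same bands, 5 of 14, 9 of 20 and 2 of 6 of the vascular and myeloid genes had one. The peak list came from 1 immunoprecipitation without a replicate, with no score per peak, and the abundance of each cell type in it was not measured.

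**Figure D5:**
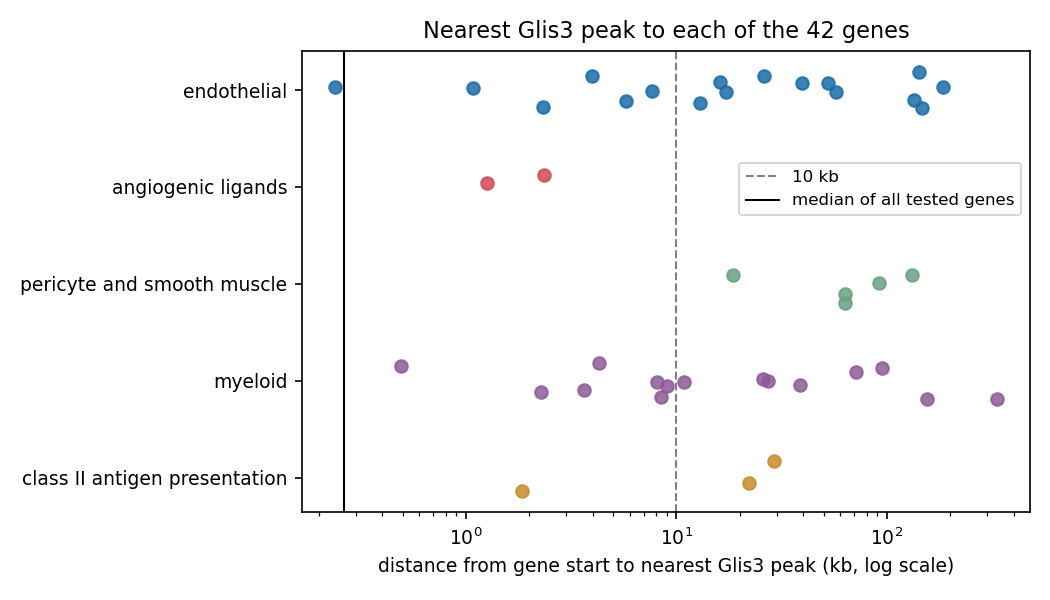
Distance from the gene start to the nearest Glis3 peak (x axis, kb, log scale) for each of the 42 genes, 1 point per gene, by role (y axis). The solid line is the median of all tested genes at 0.262 kb and the dashed line is 10 kb, and 26 of the 42 points lie to the right of the dashed line, among them all 5 mural genes.

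By role, 2 of 2 ligand genes, 6 of 17 endothelial genes, 7 of 15 myeloid genes, 1 of 3 class II genes and 0 of 5 mural genes had a peak within 10 kb. The closest was at Podxl, 239 bp inside the gene (chr6:31563599-31563798, mm10), and the next at C1qa, 491 bp inside the gene (chr4:136898254-136898453). Among endothelial genes, Erg (1073 bp), Esam (2319 and 2981 bp) and Egfl7 (5745 bp) had peaks within the gene, and Sox18 (3961 bp) and Pecam1 (7677 bp) had peaks upstream. Angpt2 had a peak 2350 bp inside the gene, Fcer1g 4291 bp inside it and H2-Ab1 1835 bp inside it. The intervals at Vegfa and C1qa thus lay within called genes, as did that of Fcer1g (chr1:171229959-171230158), while Rgs5 had none within 10 kb.

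Several of these peaks could belong to another gene. The 16 genes formed 21 pairs with 18 distinct peaks, and in 8 of the pairs another gene start was nearer. The peaks near Cd68 (3630 and 5222 bp away) lay 109 bp from the start of Mpdu1 and 1031 bp from that of Eif4a1. The peak 8093 bp from Cd14 lay 162 bp from the start of Tmco6, that 8484 bp from Tyrobp lay 1032 bp from the start of Nfkbid, and that in Egfl7 was nearer the microRNA gene Mir126a. The peak at chr4:136895091-136895290 was counted for C1qa, C1qb and C1qc, and was nearest to C1qc, 2276 bp upstream of it. Of the 42 genes, 11 were the nearest start to a peak within 10 kb, and 7 had no peak within 100 kb, namely Cdh5, Emcn, Kdr, Flt1, Pdgfrb, Ptprc and Mrc1. For comparison, 10 of 10 beta cell markers, 9 of 9 class I and interferon genes, 10 of 27 other endothelial genes, 6 of 26 other macrophage genes and 1 of 12 acinar markers had a peak within 10 kb.

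Libraries with Xist reads allowed the called genes to be compared among libraries that share this marker, in 2 labelled knockouts and 2 controls. There, Vegfa was at −0.63 (edgeR adjusted p = 0.0376), C1qa at 0.84 (0.0134) and Fcer1g at 1.05 (0.0465), while Rgs5 was at 0.40 (0.227). The libraries with Ddx3y reads held 1 labelled knockout and 2 controls and gave no value.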

How the data were processed

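Islet RNA was sequenced in 3 labelled knockout and 4 control mice, and Glis3 peaks came from 1 immunoprecipitation. The input library was not analysed here. The authors deposited raw counts per gene with mm10 coordinates. The submitters' processing notes name STAR 2.5 and featureCounts 1.5.0-p1. Strand settings are not given in the sources used here, so overlapping antisense reads cannot be told apart. The deposited peaks were 200 bp intervals without scores. For mapping and peaks the same notes list HOMER 4.9.1, Bowtie 1.2, Cutadapt 1.2.1, bedtools 2.24.0 and Picard 1.110. Of the 25611 rows, 988 repeated a symbol and were kept as separate genes.

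Counts were filtered with filterByExpr, scaled with TMM factors and tested in R 4.3.3 by the quasi-likelihood F test of edgeR 4.0.16 with robust dispersions. Benjamini-Hochberg adjustment ran over all 14529 genes tested, and an adjusted p under 0.05 passed. The fit was tested on simulated data. A gene had a peak when a peak midpoint lay within 10 kb of its 5′ end in the count table. Counting limits cover counting error only. Libraries of a group were not copies of each other (chi-square per degree of freedom 23.4 to 95.4).

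The genes and all lists were chosen with earlier results of these data known. Values per library are given for genes that passed, for genes without overlap and for defining markers, with up to 4 called genes per other list. Some genes of those lists that did not pass are also named. The result of 1 gene in the further macrophage list is not reported here. Whether each library is a separate mouse rests on the labels. Replicate numbers in the sample titles were tried as a pairing, though the labels state no block. Deviations from the group means of libraries 1, 2 and 3 correlated at 0.154, 0.128 and 0.160 across genes between same-numbered labelled knockouts and controls. Between differently numbered libraries the correlations were −0.141 to −0.008. These values are weak and do not establish a pairing. Same-numbered libraries also share Xist or Ddx3y reads, so pairing and sex marker cannot be told apart. The paired fit left out control 4. The alternatives tried were library size alone, RLE factors, a filter of 1 CPM in 3 libraries, no filter, DESeq2 1.42.0, limma-voom (limma 3.58.1), the 10 most abundant genes left out, the replicate block, each library left out, and peak windows of 1, 50 and 100 kb or the gene span. An Xist term, the libraries with Xist reads alone and an acinar covariate were added after seeing the data. Promoters were RefSeq sequences on GRCm38.p6.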

Additional observations from a re-analysis of the deposited data

Results flagged for a closer look

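Of 47 sets of control values examined, for single genes and for sums, 1 had a library far from the others, where chance flags about 1 in 20 sets. Csf1r, the macrophage growth factor receptor, stood at 16.44 CPM in control 1, while the other 3 controls lay between 11.12 and 11.73 CPM. The labelled knockouts, at 15.0, 15.5 and 16.4 CPM, were too few to examine in this way.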

How the results depend on the processing

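Itgam and Mrc1 had too few counts to pass the filter. C1qa passed in 18 of 18 alternatives, Vegfa in 16, Rgs5 in 13 and Fcer1g in 11. Scaled by library size alone, 0 vascular and myeloid genes were lower and 5 higher, among all genes 324 were lower and 1854 higher (763 and 1268 with TMM factors), and the log2 ratios of summed CPM were 0.356 (endothelial), −0.343 (ligands) and 0.759 (myeloid). The signs of 6 uncalled genes then turned, to 0.119 (Esam), 0.086 (Podxl), 0.039 (Flt1), 0.023 (Erg), 0.122 (Laptm5) and 0.122 (H2-Ab1). With limma-voom Laptm5 was at 0.005. With the replicate block, 1 was lower and 4 higher of the 40 genes and 837 lower and 1342 higher of all, Eng was called (edgeR adjusted p = 0.0354), the calls of Vegfa, Rgs5, C1qa and Fcer1g stood, those of Ptprb, Gpihbp1 and Myl9 were lost, and Robo4 (−0.063), Kdr (−0.086), Tie1 (−0.081) and Pdgfrb (−0.065) turned. In the libraries with Xist reads alone, 314 genes were lower and 734 higher, with fewer libraries in the fit, the ligand ratio was −0.622, and Robo4 (−0.051), Kdr (−0.083), Tie1 (−0.153), Lyz2 (−0.031), Aif1 (−0.207) and H2-Aa (−0.051) turned. With the acinar covariate, 0 of the 40 genes and 463 of all genes were lower, and Cdh5 (−0.014), Robo4 (−0.012), Pdgfrb (−0.075), Cspg4 (−0.094), Ptprc (0.209) and H2-Ab1 (0.141) turned. Leaving out 1 library at a time gave 1 to 2 lower and 1 to 3 higher genes. Log2 fold changes that turned ran from −0.562 to 0.104 (Erg), −0.980 to 0.216 (Ptprc), −0.281 to 0.190 (Laptm5), −0.423 to 0.119 (H2-Ab1), −0.116 to 0.592 (Cdh5), −0.068 to 0.125 (Robo4), −0.104 to 0.266 (Kdr), −0.247 to 0.218 (Sox18), −0.199 to 0.326 (Pdgfrb), −0.239 to 0.373 (Cspg4), −0.084 to 0.104 (Tie1), −0.142 to 0.228 (Cd74), −0.216 to 0.350 (H2-Aa), −0.139 to 0.044 (Esam), −0.211 to 0.005 (Podxl) and −0.259 to 0.021 (Flt1). Peaks reached 2, 28 and 35 genes within 1, 50 and 100 kb. The cause of these changes was not tested.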
